A study of Homo sapiens with 32 samples.

Results

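The expressed long intergenic non-coding RNAs (lincRNAs) of 2 breast cell lines were described in total and polysome-bound mRNA under low oxygen and mTOR inhibition. A lincRNA was kept when its class in the count tables was lincRNA and its mean level over all 32 libraries was at least 2 CPM (CPM, the counts of a gene per 1000000 counts of its library). MALAT1, NEAT1, GAS5, ZFAS1 and the SNHG small nucleolar RNA hosts were left out by name. GAS5 and ZFAS1 are of other classes in the count tables, so 7 lincRNAs above the limit were left out in this way. This rule kept 201 of the 7674 lincRNAs and of 60554 genes in all. The members were thus selected on their mean level over all libraries, so their levels are given as a description and are not tested. FAM27C (2.11 CPM), RP3-522D1.1 (2.04 CPM) and RP11-212P7.2 (2.01 CPM) lay just inside the limit, and URB1-AS1 (1.99 CPM), RP11-498C9.15 (1.99 CPM) and IQCH-AS1 (1.96 CPM) just outside it.

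MCF10A is a non-tumourigenic breast epithelial line and MDA-MB-231 is a triple-negative breast cancer line, that is, a line without oestrogen and progesterone receptors and without HER2 amplification. Each line was kept in normoxia (N), in hypoxia at 0.5% O2 for 24 h (H), in normoxia with the mTOR kinase inhibitor PP242 at 2.5 µM for 3 h (NPP), or in hypoxia with PP242 (HPP). Total mRNA (T) and the mRNA of the polysomal part of a sucrose gradient (P) were sequenced from 2 biological replicates of each condition, which gave 16 groups and 32 libraries. The libraries held between 18340916 and 46032327 counts (median 34561484), and 173 to 192 of the members had at least 10 counts in each. The medium of MCF10A cells also held EGF, hydrocortisone, cholera toxin and insulin, which that of MDA-MB-231 cells did not, so line and medium cannot be told apart. The sources used here name no engineered allele in either line. PP242 was dissolved in DMSO, and cells without the inhibitor received DMSO alone in equal amount.

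LincRNAs are transcribed between protein-coding genes, are mostly spliced and polyadenylated, and have no long open reading frame. Some act in the nucleus, some act in the cytoplasm as scaffolds or decoys for proteins and microRNAs, some are only the precursor from which a microRNA is cut, and a few carry short open reading frames. An RNA in the polysomal part of a gradient sediments with several ribosomes, which is the fate of an mRNA under translation, although a non-coding RNA in a heavy protein complex can sediment there too. Hypoxia stabilises the HIF transcription factors, and PP242 blocks both mTOR complexes, lowers cap-dependent translation and releases the FOXO and TFE factors that mTOR and AKT hold in the cytoplasm.

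The labels of the conditions held for CA9, the carbonic anhydrase that HIF induces. Its level in total mRNA was 11.2 and 9.35 CPM in normoxic MCF10A cells against 559 and 623 CPM in hypoxic ones, and 0.587 and 0.0545 CPM against 19.4 and 11.4 CPM in MDA-MB-231 cells. NDRG1 also rose, from 75.1 and 88.7 CPM to 1289.3 and 1355.6 CPM in MCF10A cells. In MDA-MB-231 cells it went from 60.5 and 43.9 CPM to 823.05 and 523.35 CPM. VEGFA was higher in H than in N, but less clearly in HPP. In MDA-MB-231 total mRNA its HPP libraries (265.6 and 311.9 CPM) overlapped those of N (307.3 and 249.2 CPM). In MCF10A total mRNA the second HPP library (34.98 CPM) lay between those of N (38.4 and 33.5 CPM). In polysomal mRNA HPP lay above N in both lines. For the labels of the lines, the basal keratin KRT5 was at 1271 to 3528 CPM in the MCF10A libraries and at no more than 0.273 CPM in any MDA-MB-231 library. The basal keratins KRT14 (496 to 4537 CPM against at most 0.624 CPM) and KRT17 (52.4 to 973 CPM against at most 5.96 CPM) were likewise higher in every MCF10A library. The epithelial markers CDH1 (0 to 0.389 CPM), EPCAM (0.113 to 0.411 CPM) and TP63 (0 to 0.243 CPM) were close to absent in MCF10A cells, whereas EPCAM stood at 9.92 to 17.9 CPM in MDA-MB-231 cells. Of the 4 markers fixed for MDA-MB-231 cells, ZEB1 was at 40.9 to 84.9 CPM there and at 3.51 to 35.8 CPM in MCF10A cells. VIM was at 3222 to 5964 CPM against 1801 to 7556 CPM in MCF10A cells, and CD44 at 522 to 878 CPM against 199.84 to 579 CPM, so the ranges of both overlapped between the lines. SPARC went against its label, at 0.0817 to 0.763 CPM in MDA-MB-231 and 98.2 to 219 CPM in MCF10A cells. The protease gene MMP14, listed beside them, was at 173 to 353 CPM in MDA-MB-231 and 34.1 to 152 CPM in MCF10A cells. The leukocyte marker PTPRC (at most 1.09 CPM), the endothelial marker PECAM1 (at most 2.19 CPM) and the liver marker ALB (at most 0.763 CPM) were near 0 in all libraries, and the fibroblast collagen COL1A1 was at 3.3 to 20.6 CPM.

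Several MCF10A libraries stood apart from their replicate, and this bears on every MCF10A result below. Of the members with at least 2 CPM in their group, 39 of 140 were over 2-fold lower in the second than in the first total library of NPP, 31 of 145 in that of HPP, 22 of 154 in that of H, 34 of 114 in the polysomal libraries of H and 34 of 125 in those of HPP. In the polysomal libraries of N, 18 members were over 2-fold higher in the second one. In MDA-MB-231 cells no group had more than 6 members lower by that much, and the most that were higher were 11 of 153 in the polysomal libraries of H. The nuclear lincRNA MALAT1 was at 5.7 CPM in the second MCF10A total library of NPP and at 5.4 CPM in that of HPP, against 29.5 to 136 CPM in the other MCF10A total libraries, so the calls in MCF10A total mRNA and of polysomal against total level were also made without these 2 libraries. The dispersion over all genes was accordingly larger in MCF10A cells, with a biological coefficient of variation of 0.349 against 0.161 in MDA-MB-231 cells.

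The members differed widely in level. The median member had a mean of 4.44 CPM and 51 members reached 10 CPM, while the 10 most abundant held 50.2% of the members' summed mean CPM. These 10 include 3 members inside ribosomal RNA genes, described below, and the other 7 held 33.1% of what remained without those 3. LINC00657 (NORAD, ENSG00000260032.1, chr20:36045618-36051018 on the minus strand), a cytoplasmic decoy for PUMILIO proteins, had 221 CPM. RP11-54H7.4, now named LINC03061, had 161 CPM, LINC00152 (CYTOR) had 108.8 CPM and its near-copy MIR4435-2HG had 48.6 CPM. Reads of these last loci, which arose by duplication, may be shared between them by the counting. LINC00998 had 42.6 CPM, and the newer annotation calls it SMIM30, the coding gene of a small membrane protein. EBLN3 (EBLN3P) and LINC01116 followed with 41.9 and 36.6 CPM. A mean of 2 CPM was reached only in MCF10A cells by 33 members, only in MDA-MB-231 cells by 61, and in both lines by the others.

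The remaining abundant members were 3 single-exon models of the short arm of chromosome 21, CH507-513H4.4 (chr21:8393419-8394341), CH507-513H4.6 (chr21:8210384-8211306) and CH507-513H4.3 (chr21:8437629-8438551), each 923 bases long and on the minus strand. Each lies wholly inside a copy of the 18S ribosomal RNA gene of the opposite strand (RNA18SN3, RNA18SN2 and RNA18SN1 in RefSeq). The libraries carry no strand, so reads of these lincRNAs and of 18S rRNA cannot be told apart. Their summed level went from 93.1 CPM in the first total library of hypoxic MDA-MB-231 cells to 1940.5 CPM in the first total library of normoxic MCF10A cells, a 20.9-fold range, and it was 3.59 to 57.5% (median 21.7%) of the members' summed CPM. All other members together ranged only from 917 to 2831 CPM. None of the 3 was called in any comparison below, and they were kept since the rule holds them.

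**Figure D1:**
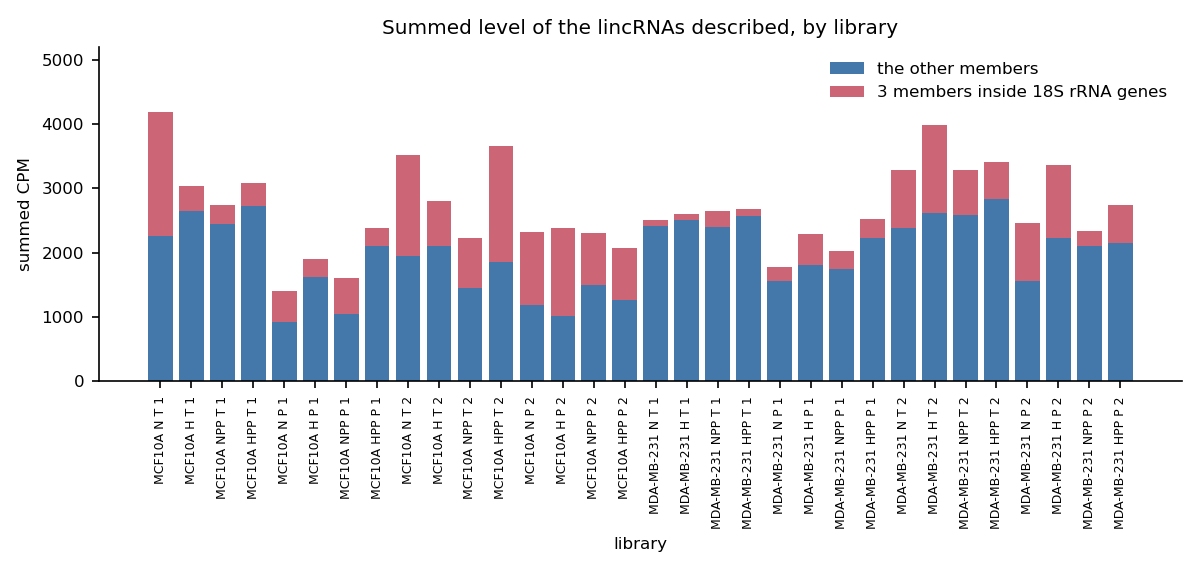
Summed CPM of the members in each of the 32 libraries, with the 3 members inside 18S rRNA genes in red and the other members in blue. The red part runs from 93.1 to 1940.5 CPM and differs between replicates of one group, while the blue part stays between 917 and 2831 CPM.

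By position in GENCODE v44, 190 members could be placed, 181 of them as long non-coding RNAs and 2 as protein-coding genes. Exons of a coding gene overlapped 41 members, and exons of other genes of any class took over 50% of the exonic bases of 20. The start of 47 members lay within 2000 bases of the start of a coding gene on the other strand, and at least 17 members contained a microRNA. The search for microRNAs did not cover every chromosome, so this last number is a lower limit.

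The hosts of microRNAs included members that rose and members that fell under the treatments. Sequences of mature microRNAs from some of these hosts are given from RefSeq (GRCh38.p14), and not every microRNA of a host is listed. The seed, bases 2 to 8, is in capitals, to show which target specificity each listed microRNA would carry. The mature microRNAs themselves were not measured here.
hsa-miR-210-3p, from MIR210HG: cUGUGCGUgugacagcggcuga
hsa-miR-22-3p, from MIR22HG: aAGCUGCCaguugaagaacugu
hsa-miR-137-3p, from MIR137HG: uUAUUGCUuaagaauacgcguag
hsa-miR-503-5p, from MIR503HG: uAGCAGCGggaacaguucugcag
hsa-miR-23a-3p, from CTD-3252C9.4: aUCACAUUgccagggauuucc
hsa-miR-221-3p, from MIR222HG: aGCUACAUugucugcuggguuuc
hsa-miR-222-3p, from MIR222HG: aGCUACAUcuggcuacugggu
hsa-let-7a-5p, from MIRLET7BHG: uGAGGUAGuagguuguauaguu
hsa-miR-4458, from MIR4458HG: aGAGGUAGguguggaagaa
The microRNAs miR-221-3p and miR-222-3p share the seed GCUACAU within a single host, and let-7a-5p and miR-4458 share the seed GAGGUAG between hosts on chromosomes 22 and 5. The same seed is held by let-7b-5p of MIRLET7BHG and let-7i-5p of the member RP11-631N16.2 on chromosome 12, which are not listed above.

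MIR210HG (ENSG00000247095.2, chr11:565657-568457 on the minus strand), the host of the hypoxia-induced miR-210, rose in hypoxia in both lines and both fractions. In MCF10A total mRNA it had 14.2 and 10.6 CPM in N, 85.3 and 73.8 CPM in H, 4.14 and 6.30 CPM in NPP and 54.6 and 43.3 CPM in HPP. In MDA-MB-231 total mRNA it had 1.58 and 0.981 CPM in N, 12.7 and 13.5 CPM in H, 1.80 and 1.81 CPM in NPP and 15.3 and 24.9 CPM in HPP. All libraries of H and HPP lay above all libraries of N and NPP of the same line and fraction. In these bulk libraries fewer cells that express a lincRNA and less RNA per cell cannot be told apart. The log2 fold change (log2FC) of H against N in T was 2.75 ± 0.48 (SE, 2 libraries a group; edgeR's quasi-likelihood test, Benjamini-Hochberg adjusted p = 0.016 over all genes tested) in MCF10A cells and 3.41 ± 0.35 (adjusted p = 0.00015) in MDA-MB-231 cells. Every adjusted p below comes from this test over all genes tested, and a member is called changed when it is under 0.05. In HPP the log2FC was 2.20 (adjusted p = 0.011) and 4.01 (adjusted p = 2.4e-05). The polysomal change was of like size, at 2.84 and 3.47 in H and at 2.04 and 4.13 in HPP. With PP242 in normoxia, MIR210HG was not called in either line, although both MCF10A libraries of NPP lay below both of N in each fraction (log2FC -0.94 and -1.32, adjusted p = 0.64 and 0.25).

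The RefSeq promoter of MIR210HG, from 250 bases before to 50 after the start, is shown because this member was called in more comparisons with normoxia than any other. In capitals stand the 2 matches to the core of the hypoxia response element, searched as ACGTG and GCGTG on both strands.
MIR210HG promoter, GRCh38.p14, chr11:568408-568707, minus strand: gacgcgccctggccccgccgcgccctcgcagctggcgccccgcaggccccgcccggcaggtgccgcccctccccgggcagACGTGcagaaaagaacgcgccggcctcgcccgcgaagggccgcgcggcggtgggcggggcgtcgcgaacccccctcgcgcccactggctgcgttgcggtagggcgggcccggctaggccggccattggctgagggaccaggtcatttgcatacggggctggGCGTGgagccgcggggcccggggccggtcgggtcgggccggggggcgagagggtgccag
These short letters are frequent: 48.4% of all 35116 RefSeq promoters of this length held one, and 71 of the 132 promoters of 113 members (53.8%) did. A match is a description of the letters and not of a bound factor.

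The members called in hypoxia alone included MIR210HG in each line and fraction. In MCF10A total mRNA 2 members rose and none fell, where 1.06% of all genes tested rose (1 of the 2, LINC01293, is given below as a description), and in polysomal mRNA 1 rose, where 1.00% of all genes did. In MDA-MB-231 cells 8 members rose in T (0.871% of all genes rose) and 12 rose in P (1.55% of all genes rose), and no member fell. With the replicate number as a block within each fraction, 7 members were called in T and 9 in P of MCF10A cells and 11 and 17 in those of MDA-MB-231 cells, and with a block over both fractions 3, 2, 11 and 21. With any 1 of the 4 MCF10A libraries compared left out, 0 members were called in T and 0 to 2 in P. In MDA-MB-231 cells 1 member was called in T without the first library of N and 3 in P without the second library of N. The shares of all genes called in these alternative fits are not given, so their counts are not a result about lincRNAs. The tests took in 188 members in MCF10A cells and 194 in MDA-MB-231 cells. Their median log2FC in H was 0.20 in T and 0.13 in P of MCF10A cells and 0.13 in T and 0.31 in P of MDA-MB-231 cells, while the medians over all genes tested were -0.03, -0.06, -0.01 and 0.02. In polysomal mRNA of hypoxic MDA-MB-231 cells only 20.1% of the members tested had a log2FC below 0, against 47.7% of all genes. The antisense RNAs moved in the same direction, with medians in H of 0.20 and 0.15 in T and P of MCF10A cells and 0.05 and 0.22 in those of MDA-MB-231 cells, and 36.0% of them had a log2FC below 0 in the last. The difference between members and antisense RNAs was not tested.

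The members that rose in hypoxic MDA-MB-231 cells were LINC00324, LINC00886, LINC01615, CMB9-22P13.1, CTD-2015G9.2 and LINC01116 in both fractions besides MIR210HG. LINC00324 (ENSG00000178977.3, chr17:8220624-8224043, minus strand) had 2.64 and 1.53 CPM in total mRNA in N, 9.87 and 10.0 CPM in H, 7.88 and 4.20 CPM in NPP and 12.7 and 14.8 CPM in HPP. Its log2FC in H was 2.32 in T (adjusted p = 0.014) and 2.03 in P (adjusted p = 0.019), with no overlap between hypoxic and normoxic libraries. LINC01116 (chr2:176611437-176637931, minus strand), near the HOXD cluster, was the most abundant member called in hypoxia alone. It had 32.3 and 40.7 CPM in N against 64.1 and 70.1 CPM in H in total mRNA. Its rise was 0.97 on the log2 scale in T (adjusted p = 0.011) and 1.30 in P (adjusted p = 0.0013). CMB9-22P13.1 (chr11:65455269-65455581) is annotated as FAUP4, a pseudogene of the ribosomal protein gene FAU, and 100% of its exonic bases lie in another long non-coding RNA. It rose from 2.64 and 2.89 CPM to 9.95 and 7.45 CPM in MDA-MB-231 total mRNA (log2FC 1.74, adjusted p = 0.0038), where FAU itself had a log2FC of -0.03 (adjusted p = 0.98).

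In MCF10A cells the other member called in hypoxia was LINC01293 (chr2:74940258-74942670, plus strand), which was almost undetected in normoxia. Its counts in total mRNA were 1 and 0 in N, 31 and 25 in H and 57 and 12 in HPP. Set against library totals, the summed counts of H were 53.7 times those of N (exact 95% interval 9.25 to 2159, counting error only), and those of HPP 79.0 times (interval 13.7 to 3167). In MCF10A cells it passed the filter on low counts only through its hypoxic libraries, so its calls there are a description of these counts and not a test. In MDA-MB-231 cells it was expressed in normoxia, at 2.71 and 5.78 CPM in T, and reached 8.39 and 9.90 CPM in HPP. AC006262.5 in MCF10A total mRNA went from 9.90 and 8.64 CPM in N to 29.5 and 48.2 CPM in H and 36.0 and 74.2 CPM in HPP and was called in HPP only, at a log2FC of 2.85. LINC01615 (chr6:169157162-169163007, minus strand) had the same course there, with 4.44 and 4.47 CPM in N, 18.7 and 24.5 CPM in H and 28.2 and 29.1 CPM in HPP. Its MCF10A total libraries of N and H did not overlap, but its adjusted p in H was 0.098.

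The combined treatment called more members than hypoxia. In total mRNA 18 members rose and 2 fell in MCF10A cells, where 5.88% of all genes rose and 6.14% fell. In MDA-MB-231 total mRNA 14 rose and 3 fell (all genes: 5.90% rose, 4.50% fell). In polysomal mRNA 23 rose and 4 fell in MCF10A cells (all genes: 8.16% rose, 10.6% fell), and 35 rose and 3 fell in MDA-MB-231 cells (all genes: 8.86% rose, 8.19% fell). In each of these called members both treated libraries lay outside both normoxic ones. The members' median log2FC in HPP was 0.24 in T and 0.26 in P of MCF10A cells and 0.16 in T and 0.29 in P of MDA-MB-231 cells, against -0.01, -0.04, 0.00 and 0.05 over all genes tested and 0.17, 0.09, 0.14 and 0.21 over the antisense RNAs. Of the members that rose in MCF10A cells, 1 in T and 2 in P (LINC01293, and RP11-221J22.2 in P) passed the filter on low counts only through hypoxic libraries. Without the second MCF10A total libraries of NPP and HPP, 11 members rose and 1 fell in HPP in T, and 10 of the 20 called with all libraries were among them. The adjusted p of MIR210HG was then 0.014, that of OSER1-AS1 0.0016, that of LINC00324 0.0054 and that of MIR22HG 0.0051, while AC006262.5 (0.053) and MIR137HG (0.082) were not called. With the replicate number as a block within each fraction, 37 members were called in HPP and 2 in NPP in MCF10A total mRNA, where same-numbered libraries deviated together. In MDA-MB-231 total mRNA, the block over both fractions called 34 in HPP and the block within each fraction 32. In MCF10A cells 3 members were called in T without the second library of N, 5 without the first library of N, 6 without the second library of HPP and 17 without the first, and 8 to 17 were called in P. In MDA-MB-231 cells 8 to 13 were called in T and 19 to 27 in P when 1 of the libraries compared was left out. As for H, the shares of all genes in these alternative fits are not given, so larger or smaller counts may not be particular to lincRNAs.

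Of the members that rose in total mRNA in HPP, 9 were called in both lines, which is 9 of 17 in MCF10A and 9 of 14 in MDA-MB-231 cells. The shares here leave out the MCF10A calls of LINC01293 and RP11-221J22.2, which passed the filter only through hypoxic libraries. They were MIR210HG, LINC00324, LINC00886, LINC01615, LINC00662, OSER1-AS1, FLJ20021, CMB9-22P13.1 and RP3-395M20.12, and LINC00662, FLJ20021 and CMB9-22P13.1 were not called in MCF10A cells without the second total libraries of NPP and HPP. Of all genes that rose in T, 363 did so in both lines, which is 36.9% of those in MCF10A and 36.2% of those in MDA-MB-231 cells, against 52.9% and 64.3% of the members. In polysomal mRNA 13 members were shared, or 61.9% of 21 and 37.1% of 35, against 37.8% and 34.3% of all genes. Within MCF10A cells 15 members rose in both fractions, or 88.2% of 17 in T and 71.4% of 21 in P, against 80.9% and 58.3% of all genes. Within MDA-MB-231 cells 12 did, or 85.7% of 14 and 34.3% of 35, against 81.0% and 53.9% of all genes. Same-numbered libraries of both fractions were taken to come from the same culture. No test was made of these differences from all genes, and the sets compared are unlike. The shares of all genes keep any that passed the filter only through hypoxic libraries. Members were also chosen for a mean of at least 2 CPM over both lines, and all genes were not. The fractions and lines were fitted with their own normoxic libraries, but HPP and H share these libraries within a fraction.

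**Figure D2:**
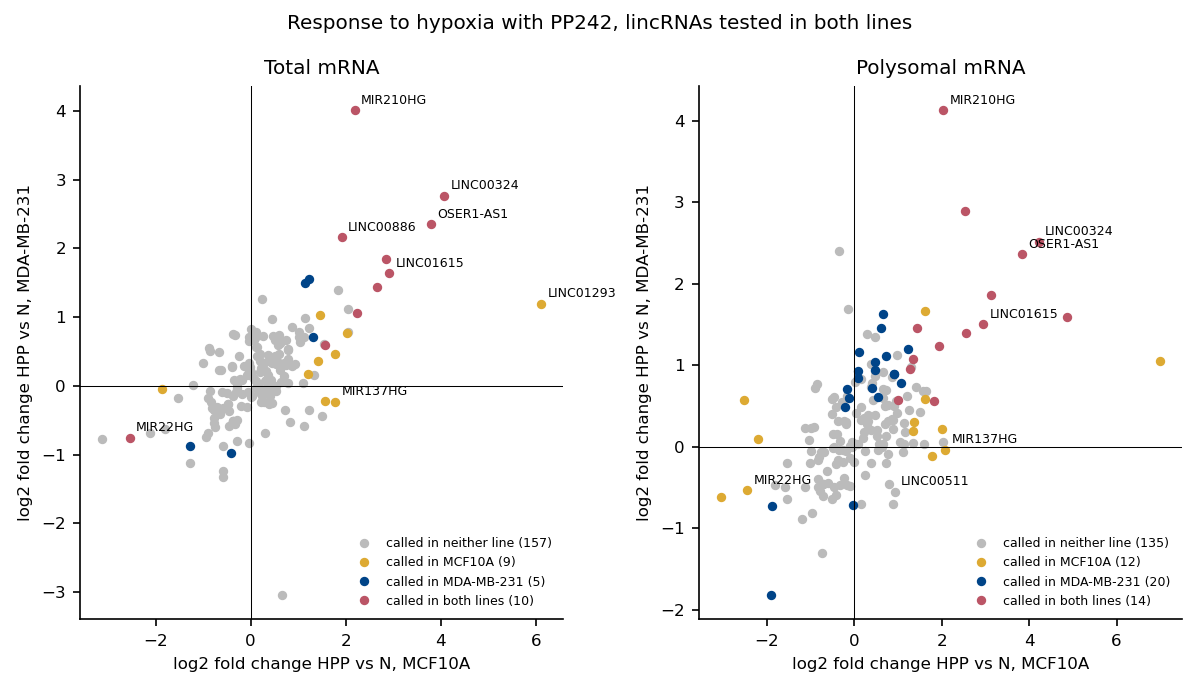
Log2FC of HPP against N in total (left) and polysomal (right) mRNA for each member tested in both lines, MCF10A on the x axis and MDA-MB-231 on the y axis, coloured by the line in which it was called. In total mRNA the 9 members that rose in both lines lie in the upper right, MIR22HG is the 1 member called lower in both lines, and MIR210HG has a log2FC of 2.20 on x and 4.01 on y.

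OSER1-AS1 (OSER1-DT, ENSG00000223891.5, chr20:44210907-44226027, plus strand) had higher levels in NPP than in N and in HPP than in H. The change from H to HPP was not tested. In MCF10A total mRNA it had 1.77 and 2.03 CPM in N, 3.24 and 3.21 CPM in H, 7.26 and 8.65 CPM in NPP and 20.0 and 24.7 CPM in HPP. In MDA-MB-231 total mRNA the values were 8.25 and 6.54 CPM in N, 11.6 and 11.0 CPM in H, 19.3 and 24.0 CPM in NPP and 33.8 and 38.1 CPM in HPP. The rising order N, H, NPP, HPP held without overlap in the total mRNA of both lines. Its log2FC in HPP was 3.79 ± 0.47 (adjusted p = 0.00067) in MCF10A and 2.35 ± 0.22 (adjusted p = 5e-05) in MDA-MB-231 cells, and in NPP it was 2.33 (adjusted p = 0.052) and 1.58 (adjusted p = 0.0071). The polysomal change in NPP was 2.37 ± 0.45 (adjusted p = 0.044) and 1.52 (adjusted p = 0.0019). The start of OSER1-AS1 lies 136 bases from that of the coding gene OSER1, which is read in the other direction. OSER1 rose less in HPP in total mRNA, with a log2FC of 1.61 ± 0.31 (adjusted p = 0.0073) in MCF10A and 0.64 ± 0.17 (adjusted p = 0.034) in MDA-MB-231 cells. Its polysomal values, 0.93 and 0.48, were not called (adjusted p = 0.055 and 0.071). The difference between the members of this pair was not tested.

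LINC00324, which rose in hypoxic MDA-MB-231 cells, had its largest log2FC in MCF10A cells under HPP. There it went from 0.985 and 0.707 CPM in N to 2.28 and 2.42 CPM in H, 3.55 and 3.26 CPM in NPP and 12.2 and 12.2 CPM in HPP in total mRNA. The log2FC was 4.08 ± 0.60 in T (adjusted p = 0.0016) and 4.22 in P (adjusted p = 0.0011), against 2.77 (adjusted p = 0.0012) and 2.52 (adjusted p = 0.0011) in MDA-MB-231 cells. LINC00886 (chr3:156747343-156817062, minus strand) in MDA-MB-231 polysomal mRNA had 1.31 and 1.11 CPM in N, 4.17 and 3.78 CPM in H, 2.67 and 2.97 CPM in NPP and 9.11 and 10.8 CPM in HPP. It rose under each treatment there, by a log2FC of 1.72 in H (adjusted p = 0.001), 1.08 in NPP (adjusted p = 0.022) and 2.89 ± 0.22 in HPP (adjusted p = 2.6e-06). In MCF10A cells it was called in HPP only, at 1.91 in T and 2.53 in P. RP11-221J22.2, with 0 and 0 counts in normoxic MCF10A polysomal libraries and 14 and 19 in HPP, was at least 12.1-fold higher there, taken against a floor of 3 counts over the group, and overlaps the exons of another gene over most of its length.

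**Figure D3:**
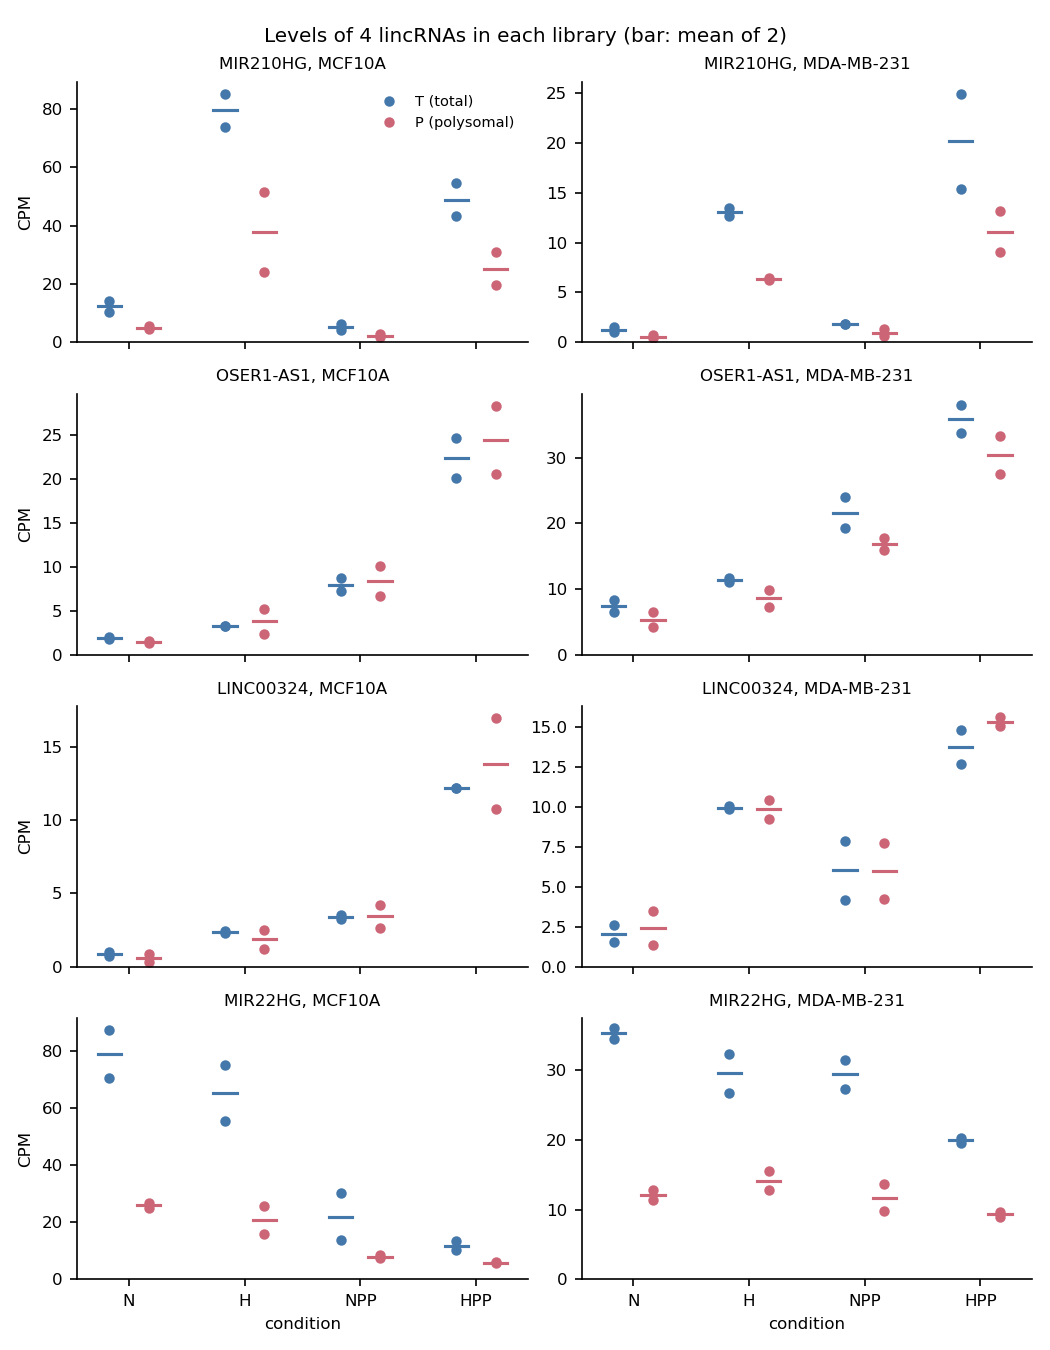
CPM in each library of MIR210HG, OSER1-AS1, LINC00324 and MIR22HG by condition, with MCF10A cells on the left and MDA-MB-231 cells on the right, total mRNA in blue and polysomal mRNA in red, 1 point per library and a bar at the mean of the 2 replicates; each panel has its own linear scale from 0. MIR210HG is higher in all H and HPP libraries than in the N libraries of the same line and fraction, OSER1-AS1 is higher in NPP and HPP than in N, and MIR22HG is lower in MCF10A NPP and HPP than in N.

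Few members fell. MIR22HG (ENSG00000186594.12, chr17:1711447-1717174, minus strand), the host of miR-22, was the member with the clearest fall. In MCF10A total mRNA it had 87.5 and 70.8 CPM in N, 75.2 and 55.5 CPM in H, 30.1 and 13.6 CPM in NPP and 13.3 and 10.2 CPM in HPP. In polysomal mRNA it had 26.8 and 25.0 CPM in N against 5.89 and 5.53 CPM in HPP. The libraries with PP242 all lay below those without it, while H overlapped N in total mRNA. The log2FC in HPP was -2.54 ± 0.33 in T (adjusted p = 0.00087) and -2.44 in P (adjusted p = 0.00081). In MDA-MB-231 total mRNA it went from 36.1 and 34.6 CPM in N to 20.3 and 19.6 CPM in HPP, a log2FC of -0.75 ± 0.19 (adjusted p = 0.022), and the polysomal change of -0.53 was not called (adjusted p = 0.073). RP11-395G23.3 also fell in both fractions of MCF10A cells in HPP, from 6.19 and 6.09 CPM to 1.51 and 1.38 CPM in T (log2FC -1.86, adjusted p = 0.046). Without the second total libraries of NPP and HPP its adjusted p was 0.13. In P, BCYRN1 (chr2:47335315-47335514, plus strand), the small cytoplasmic RNA BC200 that represses translation in neurons, fell from 1.51 and 1.39 CPM to 0.119 and 0.463 CPM (log2FC -2.52, adjusted p = 0.02). The fourth member that fell in MCF10A polysomes was ENSG00000250899.3 (chr12:3041437-3044950, plus strand), from 1.03 and 6.86 CPM to 0.773 and 0.268 CPM (log2FC -3.04, adjusted p = 0.048). This rests on the second normoxic library, without which the log2FC was -1.46 (adjusted p = 0.35). In MDA-MB-231 cells RP11-1094M14.11, now named SNHG30, fell by 0.87 in T and by 0.73 in P on the log2 scale, CH507-24F1.1 fell by 0.98 in T, and LINC01444 fell by 0.72 in P.

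PP242 in normoxia called few members. MIR22HG was the 1 member called in MCF10A total mRNA (log2FC -1.71, adjusted p = 0.049; 0.395% of all genes were called). Without the second total libraries of NPP and HPP its adjusted p there was 0.26. In polysomal mRNA OSER1-AS1 rose and MIR22HG fell (log2FC -1.89, adjusted p = 0.031; 0.568% of all genes were called). In MDA-MB-231 cells OSER1-AS1 was the 1 member called in T, where 0.359% of all genes were called. In P 6 members rose and 1 fell, where 0.659% of all genes rose and 1.24% fell (1.90% were called). Those that rose were OSER1-AS1, LINC00886, LINC00339, LINC00662, AC083843.1 and RP11-262H14.4, and AC083843.1 went from 2.00 and 1.91 CPM to 4.70 and 4.23 CPM (log2FC 1.04, adjusted p = 0.013). The member that fell was RP11-411H5.1, described below. With 1 of the 4 libraries compared left out, 0 members were called in MCF10A polysomes and 2 in MDA-MB-231 polysomes.

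The response to HPP was compared between the lines in a fit of all 32 libraries, which asked whether the change in MDA-MB-231 cells differed from that in MCF10A cells. A difference was called for 3 members in T and for 4 in P, where 2.29% of all genes were called in T and 2.29% in P. MIR22HG fell more in MCF10A cells, by 1.84 ± 0.36 on the log2 scale in each fraction (adjusted p = 0.0072 in T and 0.0071 in P). MIR137HG, the host of miR-137, rose in MCF10A cells from 0.281 and 0.319 CPM to 0.989 and 0.812 CPM in T, and had 31.3 and 40.7 CPM in N against 27.5 and 30.9 CPM in HPP in MDA-MB-231 cells. The difference in its change was -1.96 ± 0.50 in T (adjusted p = 0.037) and -2.18 ± 0.53 in P (adjusted p = 0.031), and without the second MCF10A total libraries of NPP and HPP the adjusted p in T was 0.093. LINC01293 differed in T (adjusted p = 0.028), which rests on the near absence of its counts in normoxic MCF10A cells. In P, LINC00511 had 17.5 and 17.3 CPM in N and 50.3 and 29.4 CPM in HPP in MCF10A cells, against 22.0 and 17.6 CPM and 16.7 and 13.5 CPM in MDA-MB-231 cells (difference -1.54 ± 0.39, adjusted p = 0.040). CH17-360D5.2 moved the other way, with 43.7 and 37.6 CPM in N and 34.5 and 20.2 CPM in HPP in MCF10A cells against 2.21 and 1.60 CPM and 3.12 and 4.07 CPM in MDA-MB-231 cells (difference 1.55 ± 0.41, adjusted p = 0.045). MIR210HG and OSER1-AS1 were not called as differing between the lines, and no member was called for the responses to H or to NPP. With 1 library left out, 1 or 2 members were called in T and 1 to 5 in P.

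The polysomal level of the members was then compared with their total level over the 4 conditions. Total and polysomal libraries with the same number in their titles, taken as the same culture, were fitted as separate groups. Most members tested had a log2 difference below 0, called or not, at 83.0% of them in MCF10A and 76.8% in MDA-MB-231 cells. The median log2 difference of P and T was -0.58 over the 188 members tested in MCF10A cells and -0.37 over the 194 in MDA-MB-231 cells. Protein-coding genes had medians of 0.15 and 0.03, and the antisense RNAs of the same tables had -0.70 and -0.48. The 9 tested lincRNA-class and host genes left out by name were lower still, with medians of -1.99 and -1.45. In MCF10A cells 72 members were called lower in polysomes and none higher, where 13.0% of all genes were lower and 27.4% were called in either direction. In MDA-MB-231 cells 52.1% of the members tested were lower and 7 members were higher, where 23.4% of all genes were lower and 42.4% were called in either direction. The members called lower in both lines were 67, which is 93.1% of those lower in MCF10A and 66.3% of those lower in MDA-MB-231 cells, while the 1587 genes of any class that were lower in both made up 73.3% and 39.9%. Members were chosen on their mean level over both lines, and all genes were not. Leaving out 1 library moved the number called to between 53 and 90 in MCF10A cells and by less in MDA-MB-231 cells. Without the second MCF10A total libraries of NPP and HPP, 78 were called in MCF10A cells, 66 of the 72 among them, and the median was -0.54. With the culture as a block, 63 were called in MCF10A and 121 in MDA-MB-231 cells. The shares of all genes called in these alternative fits are not given. A lower share of polysomal RNA and a lower amount per cell of RNA in that fraction cannot be told apart, since each library was scaled to its own total.

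**Figure D4:**
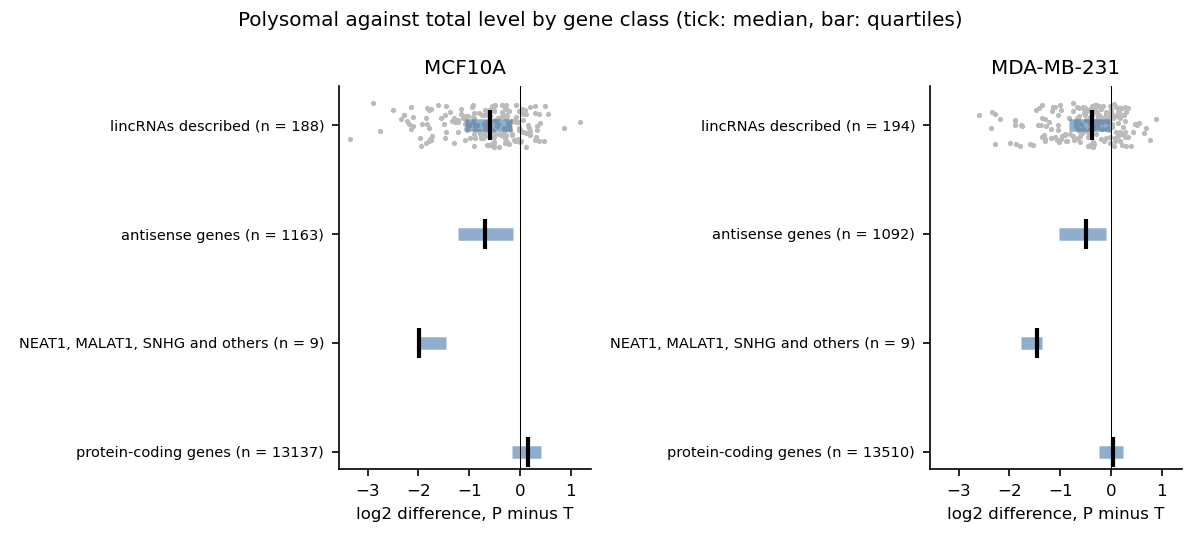
Log2 difference of polysomal and total level over the 4 conditions for members, protein-coding genes, antisense RNAs and the genes left out by name, in each line, with a blue bar from the lower to the upper quartile, a black tick at the median and, for the members, 1 grey point each. The members' medians, -0.58 in MCF10A and -0.37 in MDA-MB-231 cells, lie below those of protein-coding genes (0.15 and 0.03) and above those of the genes left out (-1.99 and -1.45).

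The members kept a like order in both lines. Of 181 tested in both, 128 were below 0 in both lines, 22 above 0 in both, 22 below 0 in MCF10A cells only and 9 in MDA-MB-231 cells only. Over these members Pearson's r between the lines was 0.84 and Spearman's rho 0.84, given as a description, since the lines share the gene models and the counting. By condition, the median in MCF10A cells was -0.60 in N, -0.59 in H, -0.55 in NPP and -0.58 in HPP, and in MDA-MB-231 cells it was -0.54 in N, -0.30 in H, -0.35 in NPP and -0.31 in HPP. Within single conditions fewer members were called lower than over all 4. In MCF10A cells 0 were called in N (47 had an unadjusted p under 0.05 by edgeR's test), 2 in H, 4 in NPP and 8 in HPP, where 0.00%, 0.132%, 0.287% and 1.11% of all genes were lower. In MDA-MB-231 cells 63 were called in N, 26 in H, 46 in NPP and 48 in HPP, where 9.66%, 3.62%, 7.47% and 8.04% of all genes were lower. Members whose exons overlapped no other gene had medians of -0.49 in MCF10A and -0.29 in MDA-MB-231 cells, against -0.62 and -0.41 for those that overlapped one. Single-exon members had -0.48 and -0.28, and members with 2 or more exons -0.60 and -0.37.

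Among the members lowest in polysomes were BCYRN1, CTD-3222D19.12, RP13-516M14.1, CRNDE and several microRNA hosts. In MCF10A cells BCYRN1, which is 200 bases long, had 4.75 and 8.25 CPM in T and 1.51 and 1.39 CPM in P in normoxia, and its log2 difference over the conditions was -3.34 ± 0.32 (adjusted p = 0.00011). CTD-3222D19.12 (chr19:16542746-16544814, plus strand) was the lowest in MDA-MB-231 cells, at -2.61 ± 0.17 (adjusted p = 7.8e-08), and was second in MCF10A cells at -2.89. Its normoxic MDA-MB-231 libraries held 5.50 and 5.56 CPM in T and 0.776 and 1.11 CPM in P. RP13-516M14.1 (chr17:82293716-82294910, plus strand) had 12.7 and 10.1 CPM in T and 0.726 and 1.87 CPM in P in normoxic MCF10A cells, and differences of -2.50 and -2.33. CRNDE (chr16:54845189-54929189, minus strand), a lincRNA raised in many tumours, had 18.8 and 18.2 CPM in T and 3.76 and 3.29 CPM in P in normoxic MDA-MB-231 cells, and a difference of -2.36 there (adjusted p = 9.3e-08). For each of these members, in the line whose normoxic values are given, every polysomal library lay below both total libraries of its condition. CTD-3252C9.4 (MIR23AHG), the host of miR-23a, miR-27a and miR-24-2, had 53.4 and 29.7 CPM in T and 7.37 and 7.17 CPM in P in normoxic MCF10A cells and a difference of -2.35 ± 0.30. CTD-2547G23.4, now named ZKSCAN2-DT, and MIR503HG each had -2.29 in MDA-MB-231 cells.

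The list of 9 microRNA hosts was drawn from the members themselves. It held the 8 whose symbols start with MIR and end with HG, and DLEU2, which was not a member. Member hosts with other names, such as CTD-3252C9.4, are not in it. Of these 8 hosts, 6 were lower in polysomes in each line, with medians of -1.20 and -1.14. Over all genes 13.0% and 23.4% were lower, and over the members tested 38.3% and 52.1%. The hosts not called were MIRLET7BHG and MIR4435-2HG (-0.69, adjusted p = 0.065) in MCF10A cells and MIRLET7BHG and MIR137HG (-0.14, adjusted p = 0.46) in MDA-MB-231 cells. MIR210HG was lower in polysomes by 1.06 and 1.01 on the log2 scale, that is, its log2 differences were -1.06 (adjusted p = 0.0061) and -1.01 (adjusted p = 0.00037), although its level in both fractions rose in hypoxia. In HPP 2 hosts rose and 1 fell in each MCF10A fraction, MIR210HG and MIR137HG against MIR22HG, and in MDA-MB-231 cells MIR210HG rose in both fractions and MIR22HG fell in T, beside the shares of all genes given above for HPP. Of 10 lincRNAs listed for links to hypoxia, 3 were members, and MIR210HG was the 1 that rose in each line and fraction in H and in HPP. LINC00152, another of them, had 66.8 and 62.0 CPM in N and 39.7 and 58.7 CPM in H in MCF10A total mRNA (adjusted p = 1) and 135 and 172 CPM against 169 and 216 CPM in MDA-MB-231 total mRNA (adjusted p = 0.55). Of 7 lincRNAs listed for p53 and DNA damage, NORAD and TP53TG1 were members, and neither was called under a treatment. Both were lower in polysomes, NORAD by a log2 difference of -1.28 ± 0.37 (adjusted p = 0.024) and -0.83 ± 0.09 (adjusted p = 8.9e-06), and TP53TG1 by -1.95 and -1.77. NORAD in MDA-MB-231 normoxia had 333 and 274 CPM in T and 135 and 168 CPM in P. In MCF10A total mRNA its level was 456 and 46 CPM in the NPP libraries, so its MCF10A values rest on unequal libraries, and without the second total libraries of NPP and HPP its log2 difference was -1.67. Of 7 listed for chromatin and imprinting, including HOTAIR, H19 and TUG1, none was a member. That list holds no lincRNA of X inactivation, and those among the members are counted but not described.

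Other members were not called lower in polysomes, and a few were called higher. LINC00998, the SMIM30 gene, had 39.2 and 41.0 CPM in T and 28.8 and 28.02 CPM in P in normoxic MDA-MB-231 cells, where both polysomal libraries lay below both total ones. Under HPP it had 34.5 and 38.3 CPM in T and 36.0 and 36.0 CPM in P there, and these overlapped. Its log2 difference over the conditions was -0.18 (adjusted p = 0.11), with -0.12 (adjusted p = 0.76) in MCF10A cells. The 7 members called higher in MDA-MB-231 polysomes were CTC-444N24.11, RP11-479G22.8, RP11-717F1.2, RP11-53O19.3, ENSG00000250899.3, FLJ20021 and CH507-254M2.2, with log2 differences from 0.89 down to 0.29. CTC-444N24.11 (chr19:57304305-57308562, plus strand) led them with 0.89 ± 0.23 (adjusted p = 0.0062). It had 5.03 and 10.5 CPM in T and 19.6 and 11.9 CPM in P in normoxia, so that both polysomal libraries were above both total ones, but its total libraries differed between replicates by more than those of most members.

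**Figure D5:**
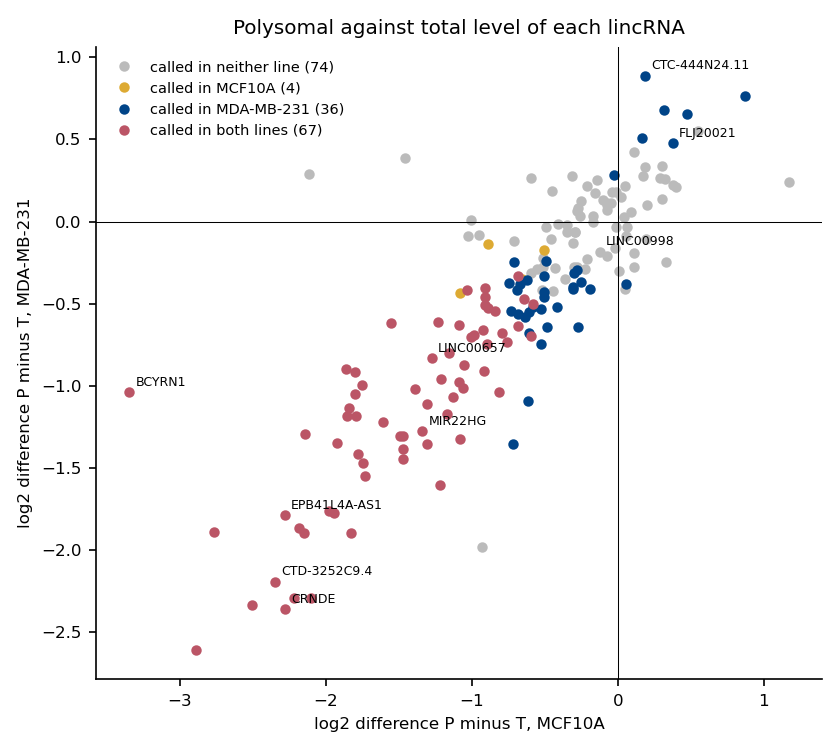
Log2 difference of polysomal and total level of each of the 181 members tested in both lines, MCF10A on the x axis and MDA-MB-231 on the y axis, coloured by the line in which the difference was called. Points lie along the diagonal, with 128 below 0 in both lines and 22 above 0 in both.

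A change of translational efficiency (Te) was tested as the log2FC in P minus that in T. For 0 of the 188 members of MCF10A cells did Te change under H, HPP or NPP by edgeR's test (0.00% of all genes were called), and DESeq2 called 0 as well. With no adjustment, 1, 3 and 3 members had p under 0.05 for H, HPP and NPP. In the tumour line 1 member was called, where 0.706% of all genes were called under any of the treatments. This was RP11-411H5.1 (LINC01709, ENSG00000226715.2, chr1:101639509-101787572, plus strand). In total mRNA it had 5.58 and 4.96 CPM in N, 5.06 and 5.90 CPM in H, 6.60 and 5.55 CPM in NPP and 4.84 and 4.81 CPM in HPP. In polysomal mRNA it had 4.33 and 3.88 CPM in N, 4.00 and 4.46 CPM in H, 1.61 and 1.70 CPM in NPP and 0.999 and 1.57 CPM in HPP. The level in P was thus lower in all 4 libraries with PP242 than in all 4 without it, while the total level overlapped. Its log2FC in P was -1.81 ± 0.24 in HPP (adjusted p = 0.0002) and -1.45 in NPP (adjusted p = 0.0037), and its Te changed by -1.76 ± 0.32 (adjusted p = 0.015) and -1.69 ± 0.32 (adjusted p = 0.035). In MCF10A cells, where its mean was 1.07 CPM, the change of Te was -2.18 ± 0.97 and -1.81 ± 0.94 (adjusted p = 1 in each). In a fit with the culture as a block, the adjusted p of the change of Te under NPP was 0.106. The MDA-MB-231 call was lost without the first normoxic total or the first normoxic polysomal library.

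Of the exonic bases of RP11-411H5.1, 221 (7.72%) overlap RPSAP19 on the opposite strand, a processed pseudogene of RPSA, which encodes a protein of the small ribosomal subunit. The mRNA of RPSA carries the 5′-terminal oligopyrimidine tract that places translation under mTOR. RPSA itself moved in the same direction in MDA-MB-231 cells, with a change of Te of -1.59 ± 0.23 in HPP (adjusted p = 0.0024) and -1.17 ± 0.23 in NPP (adjusted p = 0.039) and a change in total mRNA of -0.07 (adjusted p = 0.83) and 0.05 (adjusted p = 0.97). Reads of near-identical copies can be split by the counting, and the libraries carry no strand. The part of RPSA reads in the values of RP11-411H5.1 was not tested.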

How the data were processed

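Total and polysomal mRNA of MCF10A and MDA-MB-231 cells was sequenced as unstranded TruSeq libraries. Per the paper's methods the authors aligned the reads with STAR to GRCh38 and GENCODE v24 and estimated counts per gene with RSEM; the submitters' processing notes name GRCh37, STAR, RSEM and edgeR. The deposited counts are whole numbers per gene, without normalisation, and 0 columns were left without a sample. Positions come from GENCODE v44 and RefSeq (GRCh38), matched by Ensembl identifier.

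Counts of all gene classes were tested in R 4.3.3 with edgeR 4.0.16: filterByExpr, TMM, glmQLFit on 8 groups of 16 libraries per line (8 residual degrees of freedom), glmQLFTest, Benjamini-Hochberg adjustment over 16723 (MCF10A) or 16995 (MDA-MB-231) genes, and a threshold of 0.05. Differences between lines came from a fit of all 32 libraries (18670 genes). DESeq2 1.42.0 was an alternative, besides the filter, the scaling, replicate blocks, the libraries fitted and each library left out. The script was tested on simulated data. Total and polysomal libraries that share a number in their titles were taken as 1 culture, which was a block in an alternative. With 2 libraries against 2, p-values rest on a spread shared by all groups of a line. Intervals cover counting error only.

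The members and lists were chosen with earlier results of these data known. Named were the 10 most abundant members, up to 3 called members per direction and comparison with the largest log2FC whose treated libraries both lay outside the normoxic ones, up to 5 per direction for P against T, the members of the lists and those at the threshold; further members are named where a count is small or where they were called in both lines, and these were chosen after their values were seen. Some members that this rule takes in are counted and not named here.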

Additional observations from a re-analysis of the deposited data

Results flagged for a closer look

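For 5 members the change under HPP differed between the lines by the test of the difference itself (edgeR's quasi-likelihood test on all 32 libraries, Benjamini-Hochberg adjusted, MDA-MB-231 minus MCF10A). The members called were 1.49% of those tested in T and 1.99% in P, where 2.29% of all genes were called in each fraction. MIR22HG differed by 1.84 in T and by 1.84 in P on the log2 scale, and it was lower in HPP than in N in all libraries of both lines. MIR137HG differed by -1.96 in T and by -2.18 in P, with a mean level of 0.473 CPM in MCF10A against 33.1 CPM in MDA-MB-231 cells. LINC01293 differed by -4.89 in T, a fitted value that depends on the prior count since normoxic MCF10A total libraries held 1 and 0 of its counts. LINC00511 differed by -1.54 in P and CH17-360D5.2 by 1.55 in P. The adjusted p in T of these last 2 members was 0.081 and 0.069.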

How the results depend on the processing

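No named member changed direction under the alternatives run. Each count here is of members called, with the value given in the text in brackets. The share of all genes called under each alternative is not given, so these counts do not show whether the members moved apart from other genes. With DESeq2, 9 were called for MCF10A H in T (2), 10 for H in P (1), 4 for NPP in T (1), 2 for MDA-MB-231 NPP in T (1), and 6 and 11 for the difference between lines in T and P (3 and 4). With no filter beyond 1 read, 16, 7, 14 and 7 were called for MCF10A H in T, NPP in T, H in P and NPP in P (2, 1, 1 and 2), 27, 33, 6, 21 and 13 for MDA-MB-231 H, HPP and NPP in T and H and NPP in P (8, 17, 1, 12 and 7), 1 and 9 for Te in MCF10A and MDA-MB-231 cells (0 and 1), and 6 and 9 for the difference between lines. With library sizes alone, MCF10A had 1 for H in T, 0 for NPP in T, 2 for H in P and 1 for NPP in P. Fits of only the libraries compared gave 16, 0, 0, 16 and 1 for MCF10A H in T, NPP in T, H in P, HPP in P (27) and NPP in P, and 3, 0, 6 and 2 for MDA-MB-231 H in T, NPP in T, H in P and NPP in P. Without the second MCF10A total libraries of NPP and HPP, an alternative chosen after seeing the data, 12 were called for HPP in T (20) and 0 for NPP in T. The cause of these moves was not tested.

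The replicates of a line share numbers across groups, and nothing in the labels says that a number marks a shared batch or day. The deviations from the group means correlated at over 0.1 in 11 of the 28 pairs of MCF10A groups and 17 of the 28 pairs of MDA-MB-231 groups. The 6 pairs of MCF10A total groups were all among them, at 0.27 to 0.74, and the pair of N and H in MCF10A polysomes was at 0.56. Other MCF10A pairs were negative, down to -0.58 for total NPP with polysomal N. Total and polysomal groups of the same condition, taken as the same cultures, were at -0.14 in N, -0.18 in H, 0.01 in NPP and 0.27 in HPP. In MDA-MB-231 cells these were at 0.12, 0.02, 0.26 and 0.07. With the replicate block, 2 were called for MCF10A H in P, 1 for NPP in P, 34 for MDA-MB-231 HPP in T (17), 21 for H in P (12) and 7 for the difference between lines in P. With a replicate block within each fraction, MCF10A had 7 for H in T (2), 37 for HPP in T (20), 2 for NPP in T and 9 for H in P, MDA-MB-231 had 32 for HPP in T, and the difference between lines had 8 in T and 10 in P.

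When 1 library was left out, 345 of the repeated tests of single named members kept their call and 127 lost it. The counts ranged from 0 to 0 for MCF10A H in T, 3 to 17 for HPP in T, 0 to 2 for NPP in T, 0 to 2 for H in P, 8 to 17 for HPP in P and 0 to 0 for NPP in P. In MDA-MB-231 cells they ranged from 1 to 6, 8 to 13 and 0 to 1 for H, HPP and NPP in T and from 3 to 10, 19 to 27 and 2 to 2 in P. For Te in MDA-MB-231 cells they ranged from 0 to 1, and for the difference between lines from 1 to 2 in T and 1 to 5 in P. The medians of P against T ranged from -0.68 to -0.50 in MCF10A and from -0.39 to -0.32 in MDA-MB-231 cells. The counts of P against T moved by less than 1.5 times under every alternative run, the culture block among them (63 of MCF10A and 121 of MDA-MB-231 members), while with that block the change of Te of RP11-411H5.1 under NPP had an adjusted p of 0.106.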

Other observations

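Of the genes left out by name, which include hosts of small nucleolar RNAs, 9 were tested. GAS5 and ZFAS1 are of other classes in the count tables, and the rest of the 9 are of the lincRNA class. In polysomes under HPP 0 of the 9 were called by edgeR's test in MCF10A cells (3 had an unadjusted p under 0.05). In MDA-MB-231 cells 5 were called lower, where GAS5, SNHG8, SNHG9, SNHG19 and ZFAS1 fell by 1.44 to 2.68 on the log2 scale, and 3 of the 9 had values above 0 in each line. The 9 had a median log2FC in P under HPP of -1.25 in MCF10A and -1.44 in MDA-MB-231 cells, against 0.26 and 0.29 for the members, while their medians in T were 0.29 and -0.16. SNHG9 was also called lower in MDA-MB-231 total mRNA under HPP (log2FC -1.25, adjusted p = 0.022 by edgeR's test). GAS5, whose transcript begins with a 5′-terminal oligopyrimidine tract, had log2 differences of P and T over the 4 conditions of -2.03 and -1.77, and the nuclear NEAT1 had -2.37 and -2.15. The difference between these genes and the members was not tested.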
